A study of Mus musculus with 24 samples.

Results

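Mouse heart cells of the condition labelled SEG were set against the added effects of Erg alone and Sox17 alone at day 7, to see where the joint condition lay above or below what the single factors gave when summed on the log2 scale. For every gene the deviation was the log2 level in SEG minus that with Erg, minus that with Sox17, plus that in control. A deviation of 0 means that SEG equalled the added effects, a deviation of 1 means that it was 2-fold above them, and a negative deviation means that it was below them. The contrast takes the 12 day 7 libraries, 3 for each of 4 groups, out of 24 libraries in the series, and 14804 of the 35727 genes listed passed the filter on low counts and were tested. The groups were SEG, Erg, Sox17 and control, all labelled as mouse heart cells grown in EGM2, a medium made for endothelial cells, and harvested at day 7. The cell type label is fibroblast for control and iEC for the other groups. The labels do not say what SEG stands for, by which vector the factors were given, what the control cells received, or if replicates are separate cultures. The p-values thus reflect library-to-library spread only, possibly technical, and an effect of any agent in SEG besides Erg and Sox17 would be part of the deviation.

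Erg is an ETS family transcription factor that binds a GGAA core and maintains junction and vessel genes in endothelium, and Sox17 is a SOX family transcription factor of endoderm and arterial endothelium. Arterial endothelium is known for Notch signalling, in which the ligands Dll4, Jag1 and Jag2 bind Notch receptors on a neighbouring cell and switch on the Hey and Hes repressors. When the effects of a pair of factors add on the log2 scale, each multiplies the level of a gene by the same factor whether or not the other is present. That scale is a choice, and for genes that both factors raise from near 0 it gives very high sums, so differences on the linear scale of CPM (counts relative to the scaled library size) are given beside the log2 deviations where the sides differ.

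Total counts ran from 20438305 to 24369257 in SEG, 18830407 to 30918243 with Erg, 24090381 to 44586227 with Sox17 and 19183807 to 24782231 in control at day 7. Principal components 1 and 2 of the day 7 libraries held 42.4% and 24.1% of the variance. Replicate 1 of SEG and replicate 1 of Sox17 stood apart from the other libraries of their groups. Ribosomal protein genes took 5.17% and 7.47% of their counts, against 3.01% to 4.73% in the other day 7 libraries, and mitochondrial genes took 0.880% in that Sox17 library. The median SD of log2 CPM within a group was 0.219 in SEG, 0.143 with Erg, 0.416 with Sox17 and 0.0905 in control. The counts of genes above and below the added effects are therefore given with and without both outlying libraries, as are some lists and genes. The calls between groups that sort genes into classes were made with all libraries only. Control carried fibroblast transcripts, with Col1a1 (type I collagen) at 7776 ± 248 CPM, Dcn (decorin) at 1266 ± 105 CPM and Tcf21 (a cardiac fibroblast transcription factor) at 333 ± 28 CPM, while Cdh5 (vascular endothelial cadherin) stood at 0.152 ± 0.110 CPM (mean ± SD, n = 3).

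The factors themselves were looked at first. Erg had 836, 1039 and 1008 CPM in SEG and 5809, 5277 and 4327 CPM with Erg, against 0 to 0.0546 CPM with Sox17 and 0 to 0.113 CPM in control. Sox17 had 461, 819 and 816 CPM in SEG, 0.0924, 0.0978 and 0.244 CPM with Erg and 616, 1303 and 1322 CPM with Sox17, and 0 counts in control, for which the limit over the group is 0.0474 CPM. Every library lay on the side its label names, with SEG taken to name both factors. The mean of Erg in SEG was 0.187 of that with Erg alone, and the mean of Sox17 in SEG was 0.647 of that with Sox17 alone. SEG thus held less Erg transcript than the Erg libraries did, and the part of this lower level in the deviations was not tested. The counts cannot separate transcripts of a delivered gene from endogenous ones.

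At day 7, 3519 genes (23.8% of those tested) lay above the added effects and 3700 (25.0%) lay below them (edgeR's quasi-likelihood test, adjusted p under 0.05). The median deviation over all genes tested was −0.03. Among the genes above, the median deviation was 1.05, 1867 were at least 2-fold above and 710 at least 4-fold. Among the genes below, the median was −1.31, 2374 were at least 2-fold below and 1177 at least 4-fold. Leaving out both outlying libraries gave 4392 and 4648 genes, which held 3380 of the 3519 and 3593 of the 3700, with none called on the opposite side. For each gene the test shared 1 estimate of spread over all 24 libraries. The median SD of log2 CPM was 0.084 to 0.114 in the day 3 groups. At day 7 it was 0.416 with Sox17, 0.219 in SEG, 0.143 with Erg and 0.0905 in control. The adjusted p-values are thus not set against day 7 spread alone. A fit of the 12 day 7 libraries alone, with fewer libraries and no day 3 groups, gave 2259 above and 2823 below. It kept 2250 of the 3519 and 2801 of the 3700. With the effects added as CPM on the linear scale, for which no test was made, 3485 of the 3519 genes were still above the sum and 3655 of the 3700 still below it. In bulk RNA, fewer cells with a response and less response per cell cannot be told apart.

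**Figure D1:**
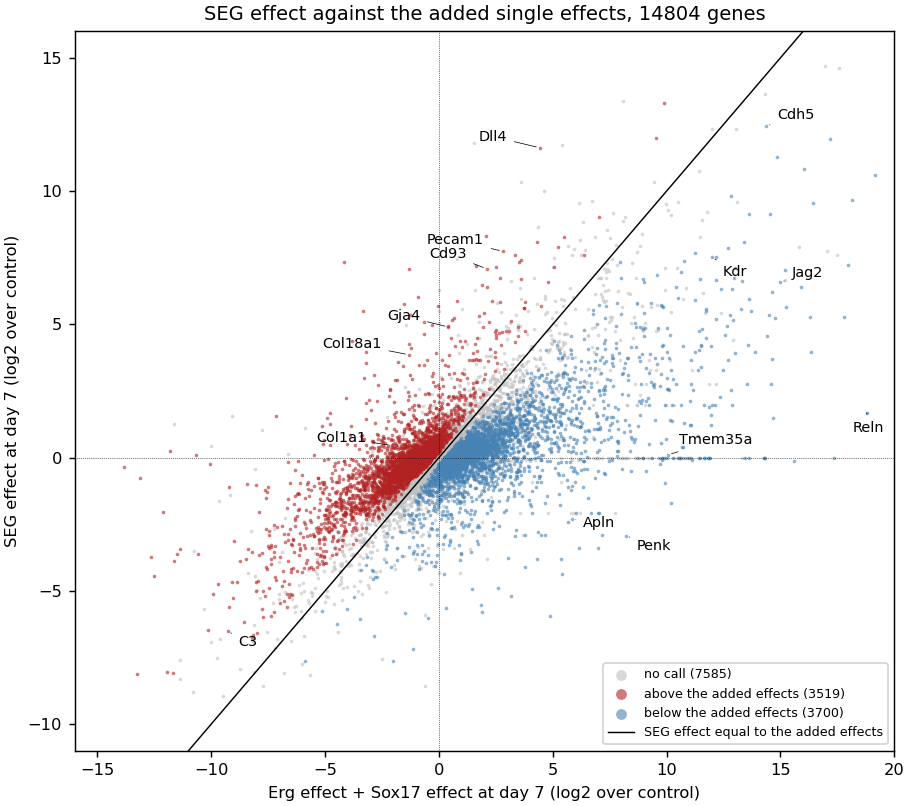
Each point is 1 of 14804 genes, with the Erg effect plus the Sox17 effect (log2 over control) on the horizontal axis and the SEG effect (log2 over control) on the vertical axis at day 7. The 3519 genes called above the line of equality and the 3700 called below it are coloured, and the called genes lie mostly nearer to a SEG effect of 0 than the line does. The row of points at a SEG effect of 0 on the right holds genes with 0 counts in SEG and in control.

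The fullest classes of called genes were ones that both single factors moved the same way and for which SEG was nearer to control than their sum. Against control, SEG was higher for 22.5% and lower for 21.8% of the genes tested, Erg for 23.7% and 24.8%, and Sox17 for 29.5% and 25.0%. Both factors alone were higher than control for 1658 genes, of which 1387 (83.7%) were below the added effects and 41 above. Both were lower than control for 1914 genes, of which 1564 (81.7%) were above the added effects and 22 below. The Erg, Sox17 and control libraries enter both the class and the deviation, so these shares are a description and were not tested.

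For many genes that both factors moved the same way, SEG was not called further from control than either single factor. A missing call does not show that the levels were equal. Of all 1658 genes that both factors raised, SEG was called higher than both single factors for 178, higher than exactly one for 262, higher than neither for 1218 and lower than both for 392. Against control, SEG was higher for 1045 of them, not called for 578 and lower for 35. Among the 1387 that lay below the added effects, a choice that itself limits how high SEG can be, SEG was higher than both for 30. Of all 1914 genes that both factors lowered, SEG was called lower than both for 175, lower than exactly one for 446, lower than neither for 1293 and higher than both for 341. Against control, SEG was lower for 1408, not called for 450 and higher for 56. Among the 1564 that lay above the added effects, chosen in the same way, SEG was lower than both for 47.

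**Figure D2:**
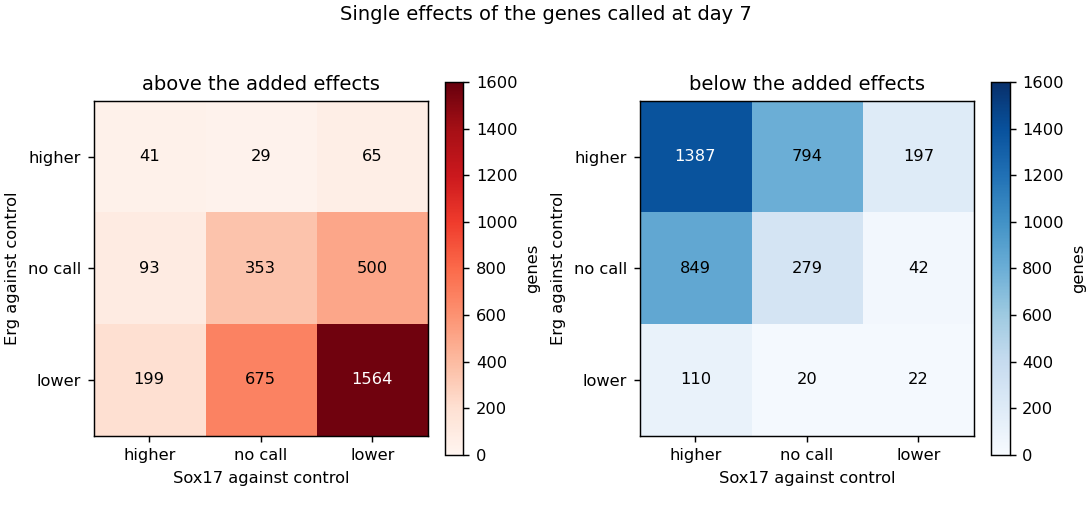
The grids count the 3519 genes above (left) and the 3700 genes below the added effects (right) by the called direction of the Erg effect (rows) and of the Sox17 effect (columns) against control at day 7. The fullest squares are 1564 genes that both factors lowered, which lay above, and 1387 genes that both raised, which lay below.

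A smaller set went beyond both factors. SEG was called higher than control, Erg and Sox17 for 608 of the genes above, and for 166 of these neither single factor was called against control. SEG was called lower than all 3 for 374 of the genes below, and for 107 of these neither single factor was called. Not all genes that a single factor raised strongly were carried over. Of 1034 genes with a called Erg effect above 2 on the log2 scale, 727 were below the added effects, and for 431 of these SEG was not called above control. Of 999 genes with such a Sox17 effect, 635 were below and for 238 SEG was not called above control. Over all genes tested, 25.0% were below the added effects. The single-factor and control libraries enter both the choice and the deviation, so these counts are a description and were not tested.

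The promoters of 3 genes on which the results turn are shown because Dll4 and Col18a1 lay far above the added effects and Apln far below them. The windows run from 250 bases before to 50 after a start of the gene in RefSeq's GRCm38.p6, with both listed starts of Col18a1. Capitals mark matches, on either strand, to the ETS cores CGGAAG or AGGAAG or to the SOX cores AACAAT or ACAATG, of which the last pair overlap when they share ACAAT. The windows are chr2:119325534-119325833 on the plus strand for Dll4, chr10:77166481-77166780 on the minus strand for the upstream start of Col18a1, chr10:77113656-77113955 on the same strand for its internal start, and chrX:48034804-48035103 on the minus strand for Apln.

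Dll4: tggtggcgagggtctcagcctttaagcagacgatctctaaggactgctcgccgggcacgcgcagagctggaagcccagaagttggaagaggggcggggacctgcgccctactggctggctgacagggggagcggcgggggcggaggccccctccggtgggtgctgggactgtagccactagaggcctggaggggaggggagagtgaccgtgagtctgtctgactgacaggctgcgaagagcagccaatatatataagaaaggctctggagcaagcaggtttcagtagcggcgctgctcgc
Col18a1 upstream start: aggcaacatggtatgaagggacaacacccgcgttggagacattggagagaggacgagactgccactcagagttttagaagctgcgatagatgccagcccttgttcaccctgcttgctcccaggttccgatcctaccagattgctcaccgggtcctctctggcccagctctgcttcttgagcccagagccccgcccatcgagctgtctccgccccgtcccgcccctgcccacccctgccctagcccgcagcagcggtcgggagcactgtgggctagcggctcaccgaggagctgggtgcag
Col18a1 internal start: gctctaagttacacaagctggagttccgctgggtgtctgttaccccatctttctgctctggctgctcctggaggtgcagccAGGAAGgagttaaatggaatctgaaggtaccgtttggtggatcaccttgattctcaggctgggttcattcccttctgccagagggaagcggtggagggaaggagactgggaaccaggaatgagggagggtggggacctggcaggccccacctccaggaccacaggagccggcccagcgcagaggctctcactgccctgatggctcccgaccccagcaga
Apln: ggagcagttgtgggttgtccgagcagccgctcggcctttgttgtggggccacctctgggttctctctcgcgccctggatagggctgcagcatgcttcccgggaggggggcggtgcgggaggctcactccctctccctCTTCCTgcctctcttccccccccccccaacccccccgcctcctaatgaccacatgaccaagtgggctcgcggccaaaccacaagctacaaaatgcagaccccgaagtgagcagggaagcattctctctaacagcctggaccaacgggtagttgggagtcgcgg

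The Apln window and the internal-start window of Col18a1 each hold 1 ETS match and no SOX match. The Dll4 window and the upstream-start window of Col18a1 hold none of these hexamers, nor do the windows of Gja4, Jag2 and Kdr, which are not printed. The Dll4 window does hold the shorter GGAA, and the upstream-start window of Col18a1 holds its reverse complement TTCC. Of 14804 genes tested, 11166 had a promoter in the table, and 57.8% of these held an ETS hexamer, 13.5% a SOX hexamer and 8.02% both. Over all 32851 promoters of the table the shares were 46.5%, 18.7% and 7.84%. For the genes above with SEG highest, 464 of 608 had a promoter and the shares were 55.6%, 14.7% and 8.84%. For the genes that both factors raised and that lay below, 1070 of 1387 had one and the shares were 52.0%, 11.6% and 7.20%. A match to these letters is a description and not a binding site.

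Genes of endothelium lay on both sides of the added effects. Over all genes tested, 23.8% were above and 25.0% below, and the list counts here and later stand beside these shares. Of 46 core endothelial genes tested, 19 were above, 14 below and 13 not called, with a median deviation of −0.02 beside −0.03 over all genes. SEG was called higher than control for 31 of them and was called highest of the 4 groups for 21 of the 46, beside 898 of the 14804 genes tested. Of 35 arterial and Notch genes, 19 were above and 4 below (22 and 5 without both outlying libraries), with a median of 1.01. Of 26 endothelial transcription factors, 12 were above and 5 below (8 and 6 in the fit of the 12 day 7 libraries alone), with a median of 0.05.

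Dll4 (ENSMUSG00000027314, a protein-coding gene at chromosome 2, 119325784 to 119335962, on the plus strand in mm10), the Notch ligand of arterial and sprouting endothelium, was close to absent without the joint condition. It had 266, 261 and 268 CPM in SEG, against 0.462, 0.147 and 0.0914 CPM with Erg, 0.726, 0.627 and 0.680 CPM with Sox17 and 0, 0.136 and 0.0846 CPM in control. The SEG libraries lay far above all others, and no single-factor library reached 1 CPM. Its deviation was 7.19 (SE 1.37, adjusted p = 0.000238), and 7.23 without both outlying libraries. The added effects would give 2.15 CPM. The error is wide because the control group held 5 counts in all.

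Gja4 (ENSMUSG00000050234, a protein-coding gene at chromosome 4, 127311421 to 127314039, on the minus strand in mm10) encodes connexin 37, a gap junction protein of arterial endothelium. It had 146, 106 and 118 CPM in SEG, against 3.28, 2.49 and 3.02 CPM with Erg, 10.4, 6.22 and 6.58 CPM with Sox17 and 2.61, 4.27 and 5.37 CPM in control. SEG stood far above every other library, Sox17 alone lay above control and Erg alone overlapped it. The deviation was 4.48 (SE 0.33, adjusted p = 1.21e-09), against an added level of 5.54 CPM. Sema3g, a semaphorin of arterial endothelium, had 415, 466 and 524 CPM in SEG, against 0.416, 0.196 and 0.122 CPM with Erg, 38.6, 40.2 and 47.9 CPM with Sox17 and 0.0567, 0.182 and 0.0846 CPM in control. Sox17 alone raised it and Erg alone was not called, yet the SEG libraries lay above every Sox17 library, with a deviation of 2.45 (SE 0.68, adjusted p = 0.00569). Efnb2, the ephrin ligand that marks arteries, had 242, 340.3 and 343 CPM in SEG, against 15.7, 17.4 and 13.8 CPM with Erg, 53.7, 126 and 131 CPM with Sox17 and 18.4, 19.8 and 17.2 CPM in control. SEG lay above Sox17 in every library, Sox17 replicate 1 was lower than the other libraries of its group, and the deviation was 1.82 (SE 0.32, adjusted p = 0.000121), or 1.62 without both outlying libraries.

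Notch receptors and targets deviated less. Notch1 and Notch4, both receptors, deviated by 1.01 (SE 0.31, adjusted p = 0.0113) and 0.38 (SE 0.11, adjusted p = 0.00677), and both calls were lost in the fit of the 12 day 7 libraries alone (adjusted p = 0.0924 and 0.0788). Notch4 had 348, 339 and 336 CPM in SEG, against 68.9, 72.7 and 67.6 CPM with Erg, 214, 218 and 214 CPM with Sox17 and 50.4, 60.1 and 61.6 CPM in control, and the groups did not overlap, with SEG highest, then Sox17, Erg and control. Hey2, a repressor switched on by Notch, was above (1.51), with 11.5, 15.1 and 15.1 CPM in SEG and 1.13, 0.864 and 0.677 CPM in control. Hey1, its relative, was not called, at −0.53 (SE 0.29, adjusted p = 0.138), and had 174, 168 and 176 CPM in SEG, 3.19, 2.84 and 2.62 CPM with Erg, 47.6, 42.5 and 42.8 CPM with Sox17 and 0.567, 0.545 and 0.423 CPM in control. Gja5, the connexin 40 of arteries, was likewise not called: it had 901, 848 and 875 CPM in SEG, against 1.43, 1.47 and 1.16 CPM with Erg, 84.8, 61 and 68.1 CPM with Sox17 and 0.227, 0 and 0 CPM in control, and its deviation was −0.67 (SE 0.71, adjusted p = 0.446). On the linear scale SEG exceeded the sum by 126 CPM for Hey1 and 802 CPM for Gja5, the opposite side from the log2 values. For both the SEG libraries were the highest, and the 4 groups of Hey1 did not overlap.

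Other arterial and Notch genes lay below. Jag2, a Notch ligand, had 14, 16.1 and 16.3 CPM in SEG, against 101, 96.2 and 88.3 CPM with Erg, 9.33, 7.88 and 10.1 CPM with Sox17 and 0, 0.273 and 0.169 CPM in control. SEG lay between the factors, above Sox17 and below Erg, and the deviation was −8.43 (SE 0.46, adjusted p = 2.60e-11). Bmx, a tyrosine kinase of arterial endothelium, had 62.3, 74.4 and 78 CPM in SEG, against 5.73, 5.53 and 5.33 CPM with Erg, 337, 348 and 336 CPM with Sox17 and 10.5, 11 and 10.1 CPM in control. Its SEG libraries lay far below those of Sox17 alone, Erg alone lay below control, and the deviation was −1.32 (SE 0.14, adjusted p = 2.28e-07). Igfbp3, which binds insulin-like growth factors, was not called at −0.16 (SE 0.15, adjusted p = 0.376), and was called below at −0.39 without both outlying libraries (adjusted p = 0.00190).

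**Figure D3:**
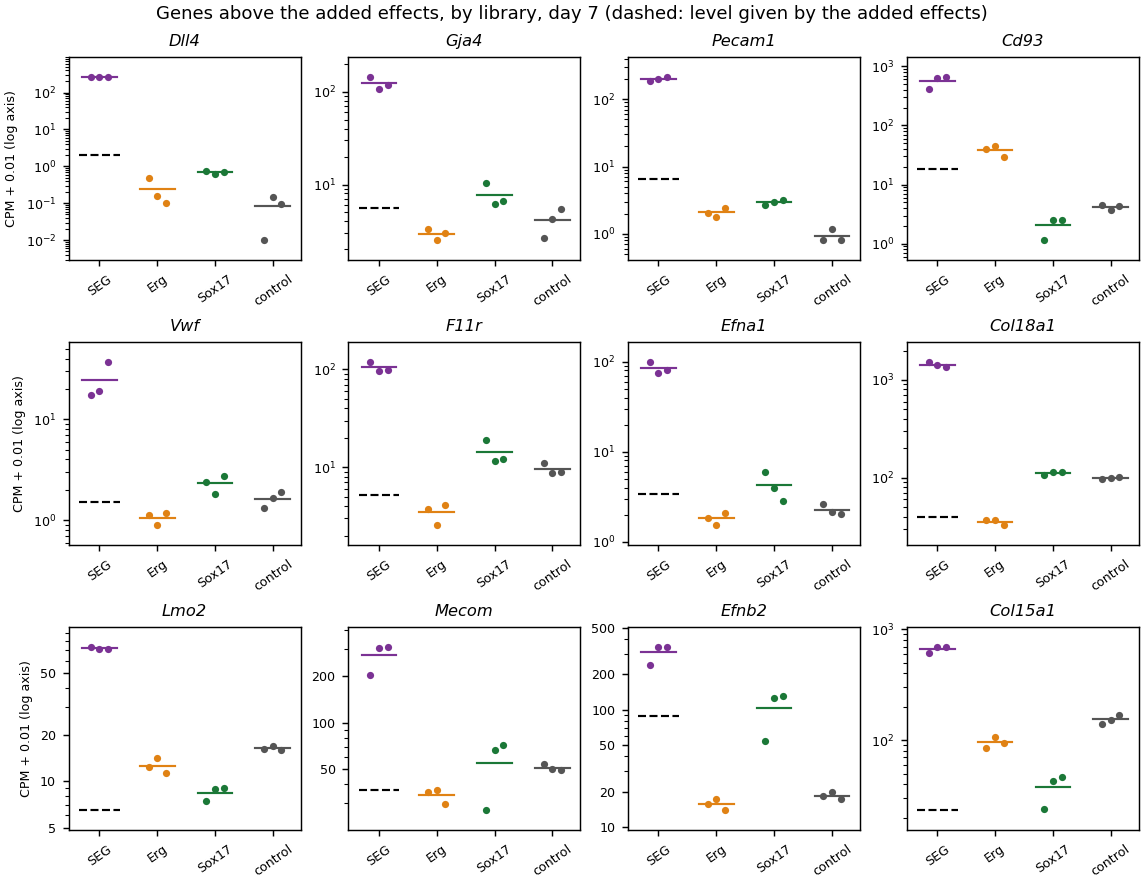
CPM + 0.01 on a log axis for 12 genes above the added effects, with a point for each of 3 libraries per group at day 7, a line at the group mean and a dashed line at the level that the added effects give in SEG. In each panel the SEG libraries lie above the dashed line and above the other groups.

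Some junction and surface genes of endothelium lay above the added effects. Pecam1, the adhesion molecule that lines endothelial contacts (ENSMUSG00000020717, a protein-coding gene at chromosome 11, 106654217 to 106750628, on the minus strand in mm10), had 186, 199 and 216 CPM in SEG, against 2.03, 1.76 and 2.41 CPM with Erg, 2.66, 3.0 and 3.14 CPM with Sox17 and 0.794, 1.18 and 0.804 CPM in control. Each single factor lifted it slightly over control and the SEG libraries stood far above both. Its deviation was 4.93 (SE 0.28, adjusted p = 3.17e-11). Cd93, a lectin-like receptor of endothelium, had 413, 642 and 669 CPM in SEG, against 40.1, 44.3 and 29.6 CPM with Erg, 1.14, 2.51 and 2.49 CPM with Sox17 and 4.59, 3.68 and 4.4 CPM in control. Erg alone raised it, Sox17 alone lowered it, no groups overlapped, and the deviation was 4.99 (SE 0.34, adjusted p = 5.59e-10).

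F11r, a junctional adhesion molecule, had 119.9, 97.4 and 99 CPM in SEG, against 3.74, 2.54 and 4.08 CPM with Erg, 19, 11.6 and 12.1 CPM with Sox17 and 10.9, 8.68 and 8.97 CPM in control, with Erg alone below control and a deviation of 4.33 (SE 0.27, adjusted p = 1.09e-10). Vwf, the clotting glycoprotein von Willebrand factor, had 17.4, 19.2 and 37.2 CPM in SEG, against 1.11, 0.880 and 1.16 CPM with Erg, 2.36, 1.83 and 2.76 CPM with Sox17 and 1.3, 1.64 and 1.9 CPM in control. Neither single factor was called against control, SEG replicate 3 was the highest library, and the deviation was 4.03 (SE 0.44, adjusted p = 3.41e-07). Efna1, an ephrin ligand, had 99.7, 75.2 and 80.7 CPM in SEG, against 1.85, 1.52 and 2.07 CPM with Erg, 6.02, 3.9 and 2.83 CPM with Sox17 and 2.61, 2.14 and 2.03 CPM in control, and deviated by 4.60 (SE 0.34, adjusted p = 1.70e-09). Only the SEG libraries of Vwf and Efna1 stood well clear of the rest. Adgrf5, an adhesion receptor of lung epithelium and of endothelium, had 54.9, 79.1 and 81.9 CPM in SEG, 4.76, 3.47 and 3.17 CPM with Erg, 0.204, 0.218 and 0.151 CPM with Sox17 and 0.510, 0.545 and 0.423 CPM in control, and deviated by 5.56 (SE 0.39, adjusted p = 7.05e-10).

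Receptors of the angiopoietin and growth factor pathways were mixed. Tek, the angiopoietin receptor, had 21.5, 27.5 and 26.8 CPM in SEG, against 11.5, 10.8 and 9.54 CPM with Erg, 5.9, 8.73 and 11.4 CPM with Sox17 and 27.3, 23.5 and 22.7 CPM in control. Both single factors lay below control while SEG overlapped control, which gave a deviation of 2.76 (SE 0.23, adjusted p = 8.86e-09). Tie1, its co-receptor, had 542, 528 and 528 CPM in SEG, against 0.370, 0.880 and 0.457 CPM with Erg, 3.84, 6.11 and 4.04 CPM with Sox17 and 0, 0.136 and 0 CPM in control. It was called above, with its SEG libraries far above all others, but the control group held 3 counts, and the call was lost without both outlying libraries (adjusted p = 0.0785). Emcn, an endothelial sialomucin, deviated by 1.99 (SE 0.42, adjusted p = 0.000665), with 215, 186 and 174 CPM in SEG and at most 6.47 CPM in any other library. Flt1, a decoy receptor of vascular endothelial growth factor, was above the sum at 1.54 (SE 0.32, adjusted p = 0.000667) although its SEG libraries (52.6, 69.8 and 75.6 CPM in SEG) overlapped those of Erg (84.8, 95.4 and 73.2 CPM with Erg), with 3.38, 8.81 and 8.65 CPM with Sox17 and 24.2, 24.6 and 27.9 CPM in control. The linear difference of Flt1 was 0.175 CPM, so on the linear scale SEG was close to the sum.

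Cldn5, a tight junction claudin of endothelium, had 7.75, 5.17 and 6.15 CPM in SEG, against 0.139, 0.0489 and 0 CPM with Erg, 0 CPM in each library with Sox17 and 0 CPM in each library in control. It was present in SEG and at or near 0 elsewhere. A count of 0 allows up to 0.0280 CPM over the Sox17 group and 0.0474 CPM over control, and with groups at 0 no deviation is given. Robo4, an endothelial guidance receptor, had 98.4, 89.1 and 87.4 CPM in SEG, against 27.5, 26.2 and 25.6 CPM with Erg, 0.182, 0.518 and 0.113 CPM with Sox17 and 0.170, 0 and 0 CPM in control; SEG was highest, and it was not called. Sox18 and Sox7, the close relatives of Sox17, were not called (−1.46 and −0.58), and Sox7 was called below at −0.69 without both outlying libraries. Lyve1, a hyaluronan receptor of lymphatic endothelium and of some macrophages, was not called at −0.78 (SE 0.44, adjusted p = 0.143) and was called below without them (−1.17, adjusted p = 0.00187).

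Several defining endothelial genes lay below the added effects on the log2 scale although SEG was their highest group. Cdh5 (ENSMUSG00000031871, a protein-coding gene at chromosome 8, 104101625 to 104144511, on the plus strand in mm10) had 727, 967 and 1010.0 CPM in SEG, against 4.76, 3.86 and 3.87 CPM with Erg, 71.6, 162 and 172 CPM with Sox17 and 0.0567, 0.273 and 0.127 CPM in control. The 4 groups did not overlap and SEG was the highest. Its deviation was −1.94 (SE 0.60, adjusted p = 0.0115), since multiplying both single effects would give 3703 CPM. On the linear scale, SEG exceeded the sum by 762 CPM. Kdr, a signalling receptor of vascular endothelial growth factor, had 183, 264 and 258 CPM in SEG, against 49.2, 48 and 40.5 CPM with Erg, 65.2, 185 and 193 CPM with Sox17 and 0.907, 1.18 and 1.69 CPM in control. SEG overlapped the higher Sox17 libraries, the log2 deviation was −4.48 (SE 0.44, adjusted p = 8.12e-08), and the linear difference was 42.6 CPM. Sox17 replicate 1 was the lowest of its group, and without both outlying libraries the deviation was −4.72.

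Pdgfb, which endothelium releases to draw in pericytes, had 171, 169.7 and 169 CPM in SEG, against 2.86, 1.86 and 2.1 CPM with Erg, 68.6, 50.5 and 61.6 CPM with Sox17 and 0, 0.136 and 0.0423 CPM in control, with a log2 deviation of −3.57 (SE 0.42, adjusted p = 1.07e-06) and a linear difference of 108 CPM. Mcam, a surface adhesion molecule, behaved alike, with 359.9, 340.5 and 353 CPM in SEG and 49.2, 54.4 and 59.3 CPM with Sox17, a deviation of −0.63 (SE 0.18, adjusted p = 0.00750) and a linear difference of 277 CPM. The side on which Cdh5, Kdr, Pdgfb and Mcam lay thus depended on the scale. Esam, a junction molecule, and Flt4, the lymphatic receptor of the growth factor family, lay below on both scales. Esam had 24.2, 18.9 and 18.6 CPM in SEG, against 67.3, 64 and 69.6 CPM with Erg, 0.454, 0.246 and 0.378 CPM with Sox17 and 0.283, 0.136 and 0.127 CPM in control, so that SEG lay between the factors, and deviated by −2.74 (SE 0.47, adjusted p = 8.56e-05). Flt4 had 69.2, 95.2 and 89.7 CPM in SEG, 213, 202 and 155 CPM with Erg, 64.7, 189 and 169 CPM with Sox17 and 37.2, 43.3 and 39.3 CPM in control, and deviated by −2.98 (SE 0.34, adjusted p = 6.66e-07).

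**Figure D4:**
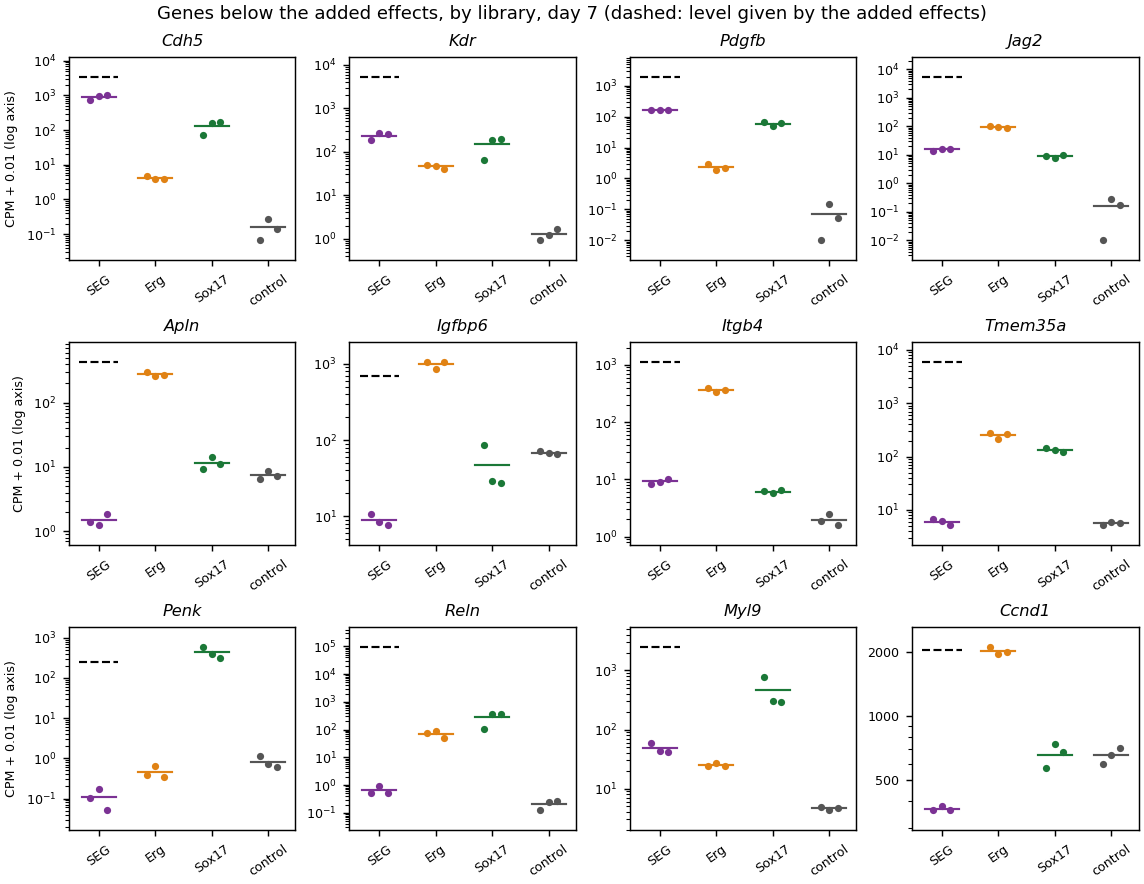
CPM + 0.01 on a log axis for 12 genes below the added effects, drawn as in the plot of genes above them. The dashed level of the added effects lies above all 3 SEG libraries in each panel, and for Apln, Igfbp6, Penk and Ccnd1 the SEG libraries lie below those of all other groups.

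Among the transcription factors, Lmo2 and Mecom stood out above the sum. Lmo2, a LIM adaptor of endothelial and blood transcription complexes, had 73.7, 71.2 and 71.4 CPM in SEG, against 12.2, 14.1 and 11.2 CPM with Erg, 7.42, 8.84 and 8.99 CPM with Sox17 and 16.2, 17 and 15.8 CPM in control. Each single factor lay below control, SEG lay above it, no SEG library overlapped any other, and the deviation was 3.49 (SE 0.20, adjusted p = 3.50e-11). Mecom, a zinc finger factor, had 205, 308 and 311 CPM in SEG, against 35.7, 36.9 and 29.6 CPM with Erg, 27.1, 66.9 and 71.6 CPM with Sox17 and 54, 50.1 and 49.1 CPM in control. SEG lay above every other library, Sox17 replicate 1 was the lowest, and the deviation was 2.90 (SE 0.35, adjusted p = 1.10e-06), or 2.71 without both outlying libraries. The ETS factors Fli1 and Ets1 were above the sum by 1.09 and 0.71 (the Ets1 call was lost in the fit of the 12 day 7 libraries alone, adjusted p = 0.121), with Fli1 at 8.08, 9.93 and 10.6 CPM in SEG and 18.4, 19.2 and 17 CPM in control, so SEG lay below control. Nr2f2, a factor of venous endothelium, was above by 1.45 (SE 0.16, adjusted p = 4.77e-07) with SEG not called against control (43, 48.2 and 51.7 CPM in SEG, 40.5, 37.9 and 39.8 CPM in control). Gata2 and Bcl6b, both endothelial factors, lay below by −1.89 (SE 0.16, adjusted p = 1.03e-08) and −2.26 (SE 0.42, adjusted p = 0.000201). Bcl6b was nevertheless highest in SEG, at 34.5, 27.3 and 25.6 CPM in SEG against 5.22, 5.67 and 6.49 CPM with Erg and 8.06, 5.21 and 6.54 CPM with Sox17, and its linear difference was 17 CPM.

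Some genes that a single factor raised were at or below control in SEG. Apln (ENSMUSG00000037010, a protein-coding gene at chromosome X, 48025146 to 48034853, on the minus strand in mm10), which encodes apelin, a peptide of sprouting endothelium, had 1.39, 1.23 and 1.83 CPM in SEG, against 298, 261 and 271 CPM with Erg, 9.15, 14.2 and 11.3 CPM with Sox17 and 6.46, 8.55 and 7.19 CPM in control. Erg alone raised it far above all other groups, and SEG was the lowest. Its deviation was −8.17 (SE 0.26, adjusted p = 1.30e-14). Of 24 genes of sprouting and growth factor signalling tested, 9 were above and 8 below. Igfbp6, which binds insulin-like growth factors, had 10.7, 8.49 and 7.62 CPM in SEG, against 1048, 869 and 1069 CPM with Erg, 87.7, 28.8 and 27.1 CPM with Sox17 and 71.5, 67.8 and 65.6 CPM in control, with SEG the lowest group, Sox17 replicate 1 above the other libraries of its group, and a deviation of −6.29 (SE 0.46, adjusted p = 1.52e-09), or −5.71 without both outlying libraries. Igfbp4, of the same family, lay above the sum, at 4.28 (SE 0.25, adjusted p = 6.12e-11), with 274, 252 and 312 CPM in SEG, 169, 148 and 143 CPM with Erg, 40.5, 20.1 and 26.7 CPM with Sox17 and 371, 273 and 288 CPM in control.

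Integrins, the receptors for matrix, lay on both sides, with 11 of 20 above and 4 below. Itgb4, the laminin receptor subunit of hemidesmosomes, had 8.27, 9.07 and 10.2 CPM in SEG, against 401, 333 and 367 CPM with Erg, 6.13, 5.73 and 6.39 CPM with Sox17 and 1.87, 2.45 and 1.57 CPM in control. Erg alone raised it, SEG lay just above Sox17 and far below Erg, with a deviation of −6.95 (SE 0.16, adjusted p = 7.05e-17). Itga7, another laminin receptor subunit, had 12.5, 13.1 and 12.5 CPM in SEG, against 101, 87.6 and 88.3 CPM with Erg, 127, 94.9 and 107 CPM with Sox17 and 6.92, 8.5 and 8.8 CPM in control. Each single factor raised it, SEG lay slightly above control, and the deviation was −6.62 (SE 0.15, adjusted p = 6.05e-17). Itga2, a collagen receptor subunit, lay above the sum instead, at 4.74 (SE 0.54, adjusted p = 6.29e-07), with 20.03, 42.7 and 40.8 CPM in SEG and no more than 5.29 CPM in any other library.

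Wide shortfalls were found in genes that both factors raised and that were near control in SEG. Reln, a secreted glycoprotein of the nervous system and of lymphatic endothelium, had 0.526, 0.944 and 0.530 CPM in SEG, against 76.8, 87.1 and 50.6 CPM with Erg, 109, 363 and 368 CPM with Sox17 and 0.113, 0.227 and 0.254 CPM in control. The SEG libraries lay close to control and far below both factors. Its deviation was −17.11 (SE 0.70, adjusted p = 2.90e-12), or −17.39 without both outlying libraries. Tmem35a, a chaperone of acetylcholine receptors, had 6.65, 6.24 and 5.13 CPM in SEG, against 273, 217 and 264 CPM with Erg, 143, 135 and 122 CPM with Sox17 and 5.16, 5.82 and 5.75 CPM in control. SEG overlapped control, and the deviation was −9.96 (SE 0.21, adjusted p = 2.48e-17). Ache, which breaks down acetylcholine, had 0.239, 0.0410 and 0.285 CPM in SEG, against 17, 15.4 and 15.4 CPM with Erg, 2.52, 2.43 and 1.89 CPM with Sox17 and 0.113, 0.0455 and 0.254 CPM in control, and SEG overlapped control, with a deviation of −10.35 (SE 0.52, adjusted p = 7.41e-12).

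Penk, which encodes the enkephalin precursor, had 0.0956, 0.164 and 0.0407 CPM in SEG, against 0.370, 0.636 and 0.335 CPM with Erg, 592, 403 and 319 CPM with Sox17 and 1.13, 0.727 and 0.592 CPM in control. Sox17 alone raised it and SEG lay below every control library, with a deviation of −11.15 (SE 0.84, adjusted p = 2.08e-09). Fbxo2, a ubiquitin ligase subunit for glycoproteins, had 0.287, 0.246 and 0.204 CPM in SEG, against 24.3, 22.2 and 26 CPM with Erg, 58.5, 18.2 and 18.7 CPM with Sox17 and 0.680, 1.05 and 0.677 CPM in control. Both factors raised it, SEG lay below control, and the deviation was −11.90 (SE 0.64, adjusted p = 1.88e-11), or −11.27 without both outlying libraries. Other genes far below the sum were Fyb2 (−13.16), Stac2 (−10.38), the heparan sulfate sulfotransferase Hs3st4 (−10.38), the receptor phosphatase Ptprt (−10.08), the neuronal membrane protein Sez6l2 (−9.62), the secreted glycoprotein Scube1 (−9.44) and Ramp3 (−9.50). The control group held only 4 counts in all for Fyb2 and 4 for Hs3st4, so the sizes of these deviations are uncertain (SE 0.60 and 0.82). Ramp3, a partner of adrenomedullin receptors, still lay above control in SEG, at 5.16, 2.71 and 3.54 CPM in SEG, against 14.2, 10.8 and 14.8 CPM with Erg, 37.4, 12 and 12 CPM with Sox17 and 0.0567, 0.0909 and 0.127 CPM in control.

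For some genes a group held at most 3 counts, so only levels are given. Col13a1, a membrane collagen, had 0.0478, 0 and 0 CPM in SEG and 73, 65.6 and 62.4 CPM with Erg. Ajap1, an adherens junction protein, had 0 counts in SEG, for a limit of 0.0430 CPM over the group, against 19, 20.5 and 20.6 CPM with Erg. Ephb1, an ephrin receptor, had 0.0956, 0.0410 and 0 CPM in SEG, against 3.23, 2.93 and 2.96 CPM with Erg and 45.4, 44.1 and 46.2 CPM with Sox17. Erg alone, or for Ephb1 mostly Sox17 alone, raised these genes and SEG lay at or near 0.

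Dkk2, Chrdl1, Mmp9 and Tro were among the 12 genes named for the widest deviations above the sum. Dkk2, a Wnt antagonist, had 90.3, 96.8 and 110.5 CPM in SEG, against 0.508, 0.0489 and 0.244 CPM with Erg, 0.704, 1.01 and 0.642 CPM with Sox17 and 0.794, 0.818 and 0.592 CPM in control. The SEG libraries were far above every other library, and the deviation was 8.39 (SE 0.45, adjusted p = 1.88e-11). Chrdl1, an antagonist of bone morphogenetic proteins, had 11.5, 18 and 16.5 CPM in SEG, against 0.277, 0.0978 and 0.183 CPM with Erg, 0.0681, 0.0546 and 0.0378 CPM with Sox17 and 0.567, 0.0909 and 0.381 CPM in control and deviated by 8.81 (SE 0.74, adjusted p = 3.09e-08). Mmp9, a gelatinase, had 16.2, 12.4 and 24.2 CPM in SEG, against 1.43, 1.27 and 1.58 CPM with Erg, 0.0681, 0.136 and 0.151 CPM with Sox17 and 0.170, 0.818 and 0.508 CPM in control and deviated by 5.74 (SE 0.54, adjusted p = 4.88e-08). Tro, an adhesion protein, had 132, 142 and 139 CPM in SEG, against 1.02, 1.17 and 1.1 CPM with Erg, 19.3, 19.2 and 18.4 CPM with Sox17 and 7.88, 6.86 and 6.85 CPM in control, with Erg alone below control and Sox17 alone above it. Its deviation was 5.57 (SE 0.14, adjusted p = 3.25e-16). Tenm4, a teneurin of cell contacts, Tecrl and Crispld1 deviated by 6.36, 5.71 and 5.40. H2-Q6 and H2-Q7, which encode class Ib histocompatibility proteins, deviated by 8.15 (8.75 without both outlying libraries) and 7.03. H2-Q5, a related pseudogene in mm10, deviated by 6.27. SEG was called lower than control for each of these H2-Q genes, and each single factor was called lower than SEG. The mean of H2-Q6 was 57.1 CPM in SEG and 121.5 CPM in control, and that of H2-Q7 was 55.8 and 112.9 CPM. The counts of these near-identical genes are uncertain because they can share reads.

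Cspg4, a proteoglycan of pericytes, had 85.1, 92.2 and 96.3 CPM in SEG, against 3.14, 3.18 and 2.19 CPM with Erg, 3.97, 5.32 and 3.21 CPM with Sox17 and 4.31, 5.68 and 5.67 CPM in control. SEG stood far above the rest and Erg lay below control, with a deviation of 5.34 (SE 0.28, adjusted p = 1.17e-11). Of 11 mural cell markers, 3 were above and 2 below. Anpep and Pdgfrb, surface markers of pericytes and fibroblasts, were the other members above, at 2.50 and 2.18, and both were below control in SEG.

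Some genes went beyond both factors although neither factor alone was called against control. Among those above were Mecom, Vwf, Ager (4.25), Slc2a13 (1.87), Adamts12 (1.79), Limch1 and Vwa1, and Gpr21, whose Erg and Sox17 groups held 1 count each. Ager, a receptor for glycated proteins, had 42.1, 26.6 and 27.1 CPM in SEG, against 0.462, 0.293 and 0.731 CPM with Erg, 1.11, 0.191 and 0.113 CPM with Sox17 and 0.227, 0.182 and 0.0846 CPM in control. Its SEG libraries stood far above the rest, and the deviation was 5.62 without both outlying libraries. Among those below were Pdpn, Tiparp, Macrod1, Rom1, Hspb1, Snx32, Ift27 and Eno2. The calls of Adamts12 and Ift27 were lost in the fit of the 12 day 7 libraries alone (adjusted p = 0.0620 and 0.0709). Pdpn, a mucin-type protein of fibroblasts and lymphatic endothelium, had 118, 107 and 108 CPM in SEG, against 279, 263 and 307 CPM with Erg, 384, 289 and 268 CPM with Sox17 and 272, 296 and 303 CPM in control. SEG was the lowest group throughout, with a deviation of −1.47 (SE 0.14, adjusted p = 4.73e-08). Hspb1, a small heat shock protein, had 229, 154 and 152 CPM in SEG, against 337, 305 and 375 CPM with Erg, 621, 251 and 244 CPM with Sox17 and 289, 274 and 275 CPM in control, with Sox17 replicate 1 far above the other Sox17 libraries. Its deviation was −1.34 (SE 0.34, adjusted p = 0.00328), or −1.02 without both outlying libraries (adjusted p = 8.91e-08). For Macrod1 the deviation was −1.71, or −1.32 without them, and replicate 1 was again the highest Sox17 library.

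Fibroblast genes that the single factors lowered were mostly above the sum. Of 42 genes of fibroblast identity and matrix, 31 were above, 2 below and 9 not called, with a median deviation of 1.59. Against control, SEG was called lower for 26 and higher for 9, Erg lower for 30 and Sox17 lower for 30. Their summed level was 43400 to 48500 CPM in SEG, 33100 to 34500 with Erg, 24200 to 30800 with Sox17 and 74100 to 79300 in control. The summed level in SEG thus lay above that of either factor and below control.

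Col1a1 had 10325, 10800.4 and 10879 CPM in SEG, against 3175, 3556 and 3210.0 CPM with Erg, 3270.4, 4705 and 5087 CPM with Sox17 and 7861, 7971 and 7497 CPM in control. SEG was the highest group, above control, and each single factor lay below control, with a deviation of 2.52 (SE 0.16, adjusted p = 1.43e-10). Col3a1, type III collagen, had 1218, 1397 and 1456 CPM in SEG, against 2215, 2508 and 2171 CPM with Erg, 344, 560.2 and 591 CPM with Sox17 and 5003, 4737 and 4369 CPM in control. SEG lay below Erg and control and above Sox17, and the deviation was 2.48 (SE 0.20, adjusted p = 5.79e-09). Dcn had 60.01, 73.4 and 73.5 CPM in SEG, against 618, 605 and 608 CPM with Erg, 45, 63.5 and 63 CPM with Sox17 and 1387, 1216 and 1196 CPM in control, with SEG next to Sox17 at the bottom and a deviation of 1.32 (SE 0.16, adjusted p = 1.21e-06). Pdgfra, a growth factor receptor of fibroblasts, was not called at 0.77 (SE 0.35, adjusted p = 0.0728) and was called without both outlying libraries (0.60, adjusted p = 0.00147).

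Matrix genes of the vessel wall gave some of the largest gains. Col18a1 (ENSMUSG00000001435, a protein-coding gene at chromosome 10, 77052178 to 77166548, on the minus strand in mm10), the basement membrane collagen that yields endostatin, had 1536, 1419 and 1362 CPM in SEG, against 36.7, 36.9 and 32.7 CPM with Erg, 107, 115 and 113 CPM with Sox17 and 97.5, 98.6 and 101 CPM in control. SEG stood above all other libraries, Erg alone lay below control, and the deviation was 5.17 (SE 0.11, adjusted p = 3.19e-17). Col15a1, its close relative, had 609, 687 and 695 CPM in SEG, against 85.6, 106 and 94.6 CPM with Erg, 24, 42.7 and 46.5 CPM with Sox17 and 141, 153 and 169 CPM in control, with both single factors below control, SEG above it, and a deviation of 4.83 (SE 0.25, adjusted p = 8.17e-12). Fbln2, an elastic fibre protein, and Mfap4, a microfibril protein, deviated by 3.46 (SE 0.18, adjusted p = 1.23e-11) and 3.36 (SE 0.21, adjusted p = 1.34e-10) with SEG below control. Of 26 basement membrane genes, 11 were above and 7 below, but 5 and 7 in the fit of the day 7 libraries alone. Col4a6, a type IV collagen chain that Sox17 alone raised, lay below at −3.65 (SE 0.37, adjusted p = 1.09e-07).

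Transcription factors of heart mesenchyme went with the fibroblast genes, with 13 of 27 above and 2 below and a median of 0.73. Tcf21 was at 1.16 (SE 0.13, adjusted p = 3.09e-07), Snai2 at 2.88 (SE 0.19, adjusted p = 3.28e-10) and Tbx20 at 2.22 (SE 0.41, adjusted p = 0.000176). Tbx20, a cardiac T-box factor, had 263, 431 and 433 CPM in SEG, against 568, 723 and 557 CPM with Erg, 65.5, 202 and 222 CPM with Sox17 and 1285, 1277 and 1174 CPM in control. SEG lay below control, and Sox17 replicate 1 was far below the other libraries of its group.

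Most sterol and interferon genes lay above the sum. Of 24 genes of sterol and fatty acid synthesis, 23 were above and none below, with a median of 1.17. Against control, SEG was called lower for 22, Erg for 24 and Sox17 for 19. Scd1, which makes monounsaturated fatty acids, had 127, 174 and 192 CPM in SEG, against 77.2, 81.5 and 75 CPM with Erg, 181, 284 and 313 CPM with Sox17 and 490.4, 449 and 391 CPM in control. SEG and both factors lay below control, SEG between the factors apart from an overlap with Sox17, and the deviation was 1.85 (SE 0.23, adjusted p = 1.42e-06). Elovl6, a fatty acid elongase, and Stard4, a sterol carrier, deviated by 2.50 (SE 0.21, adjusted p = 8.60e-09) and 1.59 (SE 0.27, adjusted p = 8.14e-05).

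Of 33 interferon response genes, 26 were above and 1 below, with a median of 1.46. SEG was called lower than control for 13, Erg for 16 and Sox17 for 31. Ifi44, an interferon-induced protein, had 66.5, 92.1 and 79.5 CPM in SEG, against 57, 55.6 and 45.5 CPM with Erg, 9.58, 7.56 and 14.5 CPM with Sox17 and 204, 211 and 184 CPM in control. All groups lay below control, SEG was the highest of them, and the deviation was 4.84 (SE 0.58, adjusted p = 1.23e-06). Oas2, a sensor of double-stranded RNA, had 15.7, 16.7 and 14.6 CPM in SEG, against 14.4, 15 and 13.1 CPM with Erg, 5.49, 2.86 and 3.93 CPM with Sox17 and 46.8, 41.6 and 50.5 CPM in control and deviated by 3.64 (SE 0.34, adjusted p = 4.93e-08). Cxcl10, an interferon-induced chemokine, was not called between SEG and control, at 13.2, 10.2 and 9.86 CPM in SEG and 6.92, 6.59 and 4.95 CPM in control, with a deviation of 3.55 (SE 1.02, adjusted p = 0.00741). In complement and inflammation, 14 of 29 genes were above and 5 below. C3, the central complement protein, had 21.3, 29 and 29.5 CPM in SEG, against 296, 307 and 278 CPM with Erg, 28.1, 32.5 and 37.1 CPM with Sox17 and 2776, 2325 and 2211 CPM in control. SEG was about as low as Sox17 alone, and the deviation was 2.76 (SE 0.20, adjusted p = 1.56e-09).

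Cell cycle genes were the list most often below. Of 36, none was above and 34 were below, with a median of −1.30. Against control, SEG was called higher for 18, Erg for 23 and Sox17 for 35. Their summed level was 797 to 828 CPM in SEG, 915 to 924 with Erg, 1340 to 1460 with Sox17 and 574 to 686 in control. SEG lay above control and below both factors.

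Mki67, a marker of dividing cells, had 19.8, 22.4 and 24.6 CPM in SEG, against 18.2, 22.9 and 14.5 CPM with Erg, 39.6, 47.1 and 54.1 CPM with Sox17 and 11.5, 15.1 and 18.4 CPM in control. Sox17 was the highest group, SEG overlapped Erg, and the deviation was −1.37 (SE 0.26, adjusted p = 0.000247). Mcm5, of the replication helicase, had 17.5, 15.3 and 17.4 CPM in SEG, against 18.9, 19.7 and 20.6 CPM with Erg, 45.4, 31.8 and 34.4 CPM with Sox17 and 8.33, 9.64 and 10.2 CPM in control, with SEG below Erg and Sox17 and a deviation of −2.23 (SE 0.17, adjusted p = 1.98e-09). Birc5, which acts in chromosome segregation, was at −1.98 (SE 0.34, adjusted p = 9.08e-05), and Sox17 replicate 1, at 34.4 CPM, was above the other libraries of its group. Ccnd1, the cyclin that carries growth signals into the cycle, had 362, 379 and 362 CPM in SEG, against 2125, 1967 and 2009.7 CPM with Erg, 569.6, 739 and 677 CPM with Sox17 and 596, 660.2 and 713 CPM in control. Erg alone raised it and SEG was the lowest group, with a deviation of −2.48 (SE 0.12, adjusted p = 3.84e-12). Cdkn1a, an inhibitor of the cycle, lay below at −1.06 (SE 0.12, adjusted p = 3.87e-07), and Cdkn1c, another, lay above at 1.23 (SE 0.26, adjusted p = 0.000699).

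Contractile genes lay below the sum more often than above it. Of 21 smooth muscle contractile genes, 11 were below and 4 above (11 and 7 without both outlying libraries), with a median of −0.43. Acta2, smooth muscle actin, had 1270.3, 1006 and 1071 CPM in SEG, against 202, 253 and 245 CPM with Erg, 2988, 1804 and 1806 CPM with Sox17 and 70.5, 58.3 and 65.5 CPM in control. The groups did not overlap, SEG lay above Erg and below Sox17, Sox17 replicate 1 was the highest library, and the deviation was −2.83 (SE 0.25, adjusted p = 2.47e-08). Tagln, an actin-binding protein, had 560.0, 409 and 448 CPM in SEG, against 268, 269 and 263 CPM with Erg, 1349.8, 681 and 666 CPM with Sox17 and 24.3, 24.2 and 30.2 CPM in control and deviated by −4.27 (SE 0.31, adjusted p = 1.26e-09). Myl9, a myosin light chain, had 58.9, 43.6 and 41.8 CPM in SEG, against 24, 27.4 and 24.5 CPM with Erg, 785, 309 and 291 CPM with Sox17 and 4.93, 4.27 and 4.74 CPM in control, with a deviation of −5.71 (SE 0.42, adjusted p = 1.51e-09), or −5.30 without both outlying libraries. Cnn1 and Actg2, both contractile proteins, deviated by −6.07 (SE 0.95, adjusted p = 2.91e-05) and −7.39 (SE 0.79, adjusted p = 2.37e-07).

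Markers of other cells were counted as well. Of 20 macrophage markers, none was above and 15 were below, with a median of −2.12. Their summed level was 259 to 343 CPM in SEG, 954 to 986 with Erg, 181 to 297 with Sox17 and 183 to 234 in control, and no marker was at 0 in any group. Erg alone was called higher than control for 19 of them. Trem2, a receptor of macrophages, had 1.82, 1.56 and 2.08 CPM in SEG, against 18.3, 17.1 and 19.7 CPM with Erg, 8.54, 4.28 and 3.67 CPM with Sox17 and 3.63, 3.18 and 2.71 CPM in control and deviated by −4.14 (SE 0.36, adjusted p = 1.77e-08). Cd68, a lysosomal protein of macrophages, had 7.84, 4.59 and 5.05 CPM in SEG, against 51.3, 43.9 and 48.9 CPM with Erg, 14.8, 10.9 and 9.26 CPM with Sox17 and 11.7, 10.2 and 11.5 CPM in control and deviated by −3.12 (SE 0.27, adjusted p = 1.20e-08). Erg libraries were the highest for both. The part of macrophage RNA in the shortfall of genes that Erg raised, such as Stab1 (−3.07) and Lyve1, which macrophages also express, was not tested.

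Cardiomyocyte markers summed to 11.4 to 20 CPM in SEG, 15.1 to 21.8 with Erg, 27.5 to 83.4 with Sox17 and 79.8 to 98.4 in control over 6 genes tested, with 1 above and 2 below. Of 7 lymphoid and blood markers, 1 was above and 3 below, of 8 epithelial and mesothelial markers 2 and 4, and of 10 neural and glial markers 1 and 3. Nefm, a neurofilament, was the marker named among the neural ones below, at −3.97 (SE 0.58, adjusted p = 1.23e-05). Ptprc, the general leukocyte marker, was not called (−0.46 (SE 0.45, adjusted p = 0.404)), with 2.3, 1.72 and 3.46 CPM in SEG and 5.73, 7.63 and 4.42 CPM with Erg.

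Signalling lists were mixed, beside 23.8% above and 25.0% below over all genes tested. Of 38 genes of transforming growth factor beta and bone morphogenetic protein signalling, 19 were above and 7 below. Tgfbr2, a receptor of that pathway, had 373, 548 and 562 CPM in SEG, against 146, 153 and 131 CPM with Erg, 189, 427 and 456 CPM with Sox17 and 626, 627 and 563 CPM in control. Both single factors lay below control and SEG overlapped Sox17, with a deviation of 2.55 (SE 0.31, adjusted p = 1.33e-06). Of 35 Wnt genes, 11 were above and 13 below (6 and 12 in the fit of the 12 day 7 libraries alone). Dkk3, another Wnt inhibitor family member, was at 2.58 and the ligand Wnt9a at −2.30. The mean of Dkk3 was 49.0 CPM in SEG, below the 928 CPM of control. Of 35 genes of insulin-like, fibroblast and platelet-derived growth factor signalling, 15 were above and 11 below. In the fit of the day 7 libraries alone these counts were 11 and 11. Fgfr3, a fibroblast growth factor receptor, was at −5.76 (SE 0.30, adjusted p = 1.39e-11). Of 43 genes of ephrin, semaphorin and guidance signalling, 17 were above and 8 below (21 and 11 without both outlying libraries), with Efna3 at −4.51 (SE 0.24, adjusted p = 2.12e-11). Of 36 proteases and inhibitors, 18 were above and 8 below, with the collagenase Mmp13 at −5.22 (SE 0.46, adjusted p = 1.82e-08) and the membrane protease Mmp15 at −5.43 (SE 0.24, adjusted p = 1.45e-12).

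Of 28 junction genes, 10 were above and 7 below. Of 17 venous and lymphatic genes, 7 were above and 4 below (4 and 4 in the fit of the day 7 libraries alone). Immediate early genes counted 9 above and 5 below of 20, with Egr2 at 1.91 and Dusp1 at −1.82, both induced by growth signals. Glycolysis genes counted 3 above and 9 below of 20 (6 and 10 without both outlying libraries). Gapdh, a glycolytic enzyme, had 1637, 1200.2 and 1263 CPM in SEG, against 2370.2, 2062 and 2675 CPM with Erg, 3395, 1619 and 1592 CPM with Sox17 and 1004, 1064 and 1008 CPM in control and deviated by −1.90 (SE 0.28, adjusted p = 1.73e-05), with Sox17 replicate 1 far above the other Sox17 libraries. Stress and unfolded protein genes counted 8 above and 10 below of 21. Hspa1a and Hspa1b, heat shock proteins whose near-identical sequences make their counts uncertain, were at −2.91 and −2.33. Adipocyte and lipid uptake genes counted 2 above and 5 below of 13, with Cd36, a fatty acid receptor, at −3.66 (SE 0.37, adjusted p = 1.38e-07). Cartilage and bone genes counted 7 above and 6 below of 18, with Alpl, alkaline phosphatase, at 4.67 (SE 0.35, adjusted p = 1.77e-09). The mean of Alpl was 1.99 CPM in SEG, below the 23.1 CPM of control. Cyclin-dependent kinase inhibitors and D cyclins counted 4 above and 7 below of 18.

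**Figure D5:**
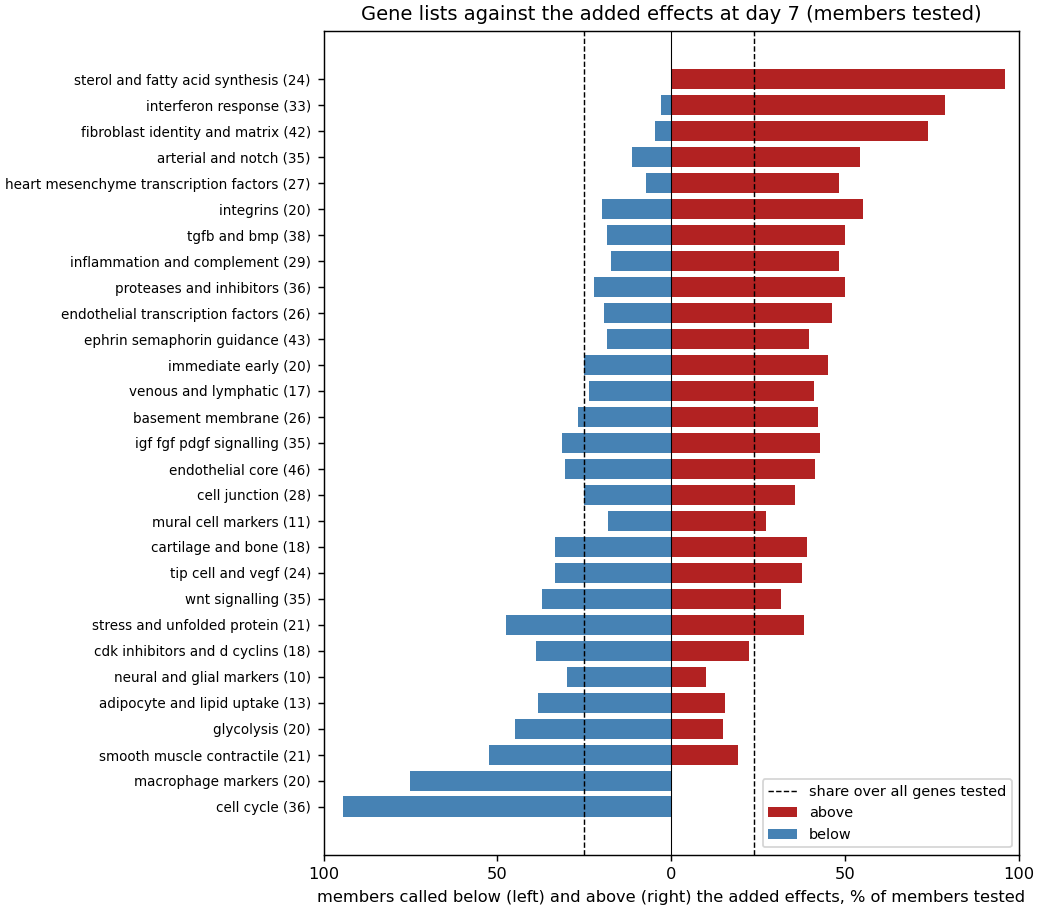
Bars give the share of tested members of each list called above (right, red) and below (left, blue) the added effects at day 7, with the number tested in brackets and dashed lines at the shares over all genes tested, 23.8% above and 25.0% below. Sterol, interferon and fibroblast genes lie mostly to the right and macrophage and cell cycle genes to the left; lists with under 10 members tested are not drawn.

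The 12 day 3 libraries of the same conditions are separate libraries. Of all 14804 genes tested, they gave 2696 above and 2630 below the added effects, the background for the overlaps that follow. Of the 3519 genes above at day 7, 1790 (50.9%) were also above at day 3 and 101 were below. Of the 3700 below at day 7, 1721 (46.5%) were also below at day 3 and 218 were above. A test of the difference itself found the deviation higher at day 7 than at day 3 for 1108 genes (7.48%) and lower for 1151 (7.77%).

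All 36 cell cycle genes had a lower deviation at day 7 than at day 3, where 26 were above, 2 below and the median was 1.07. Mki67 stood at 1.39 at day 3, and the difference between the days was −2.76 (SE 0.37, adjusted p = 2.31e-05). Its mean at day 3 was 55.6 ± 6.21 CPM in SEG, 24 ± 4.63 with Erg, 69.1 ± 10.004 with Sox17 and 78.8 ± 2.53 in control (SD, n = 3). Contractile and macrophage genes also had lower deviations at day 7, in 8 of 21 and 9 of 20 members. Acta2 moved by −2.83 (SE 0.36, adjusted p = 1.33e-05) and Cd68 by −1.61 (SE 0.38, adjusted p = 0.00669).

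Fibroblast and sterol genes had higher deviations at day 7 in 20 of 42 and 11 of 24 members, and none of either list had a lower one. Col1a1 moved by 1.51 (SE 0.22, adjusted p = 7.14e-05). Of the endothelial core genes, 13 of 46 were higher and 4 lower, and of the arterial and Notch genes 7 of 35 were higher and 3 lower. Pecam1 moved by 3.16 (SE 0.42, adjusted p = 2.28e-05) and Flt1 by 3.24 (SE 0.47, adjusted p = 6.06e-05), while the difference was 1.49 (SE 1.36, adjusted p = 0.493) for Dll4 and −0.68 (SE 0.47, adjusted p = 0.357) for Gja4. Hey2, below the sum at day 3 at −2.42, moved by 3.93 (SE 0.53, adjusted p = 2.96e-05). For Gja5 the difference was −3.25 (SE 1.76, adjusted p = 0.238), which was not called. Without both outlying libraries the count of genes that differed between the days was 5011, against 2259 with them. It was 5167 when the Sox17 and SEG libraries of day 7 were blocked by replicate number.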

How the data were processed

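Messenger RNA was sequenced by Novogene after extraction with RNeasy, per the labels' protocols. The authors deposited raw whole-number counts for 35727 Ensembl genes, of which 35422 carry a name. The submitters' processing notes name Salmon, DESeq2 and mm10. Their versions, order and settings, and any use of strand, are not stated in what was used here. Near-identical genes and overlapping genes are therefore uncertain.

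The counts were fitted in edgeR 4.0.16 (R 4.3.3; filterByExpr with a minimum count of 10, TMM scaling, prior count 0.125) by quasi-likelihood over all 24 libraries, with a mean for each of 8 groups. Contrasts were tested 2-sided, with Benjamini-Hochberg adjustment over all genes tested, and an adjusted p under 0.05 is a call. The SE is the size of a log2 deviation over the square root of its F statistic. The fit was also run on simulated counts with the same spread in every group and no outlying libraries. That run cannot show how the fit behaves with the unequal spread of these groups. A group at 0 has a limit of 3 counts over its 3 libraries, and such limits cover counting error only. Alternatives used limma 3.58.1, DESeq2 1.42.0, other scaling and filters, day 7 alone, a replicate block and each library left out. Coordinates come from GENCODE's annotation of mm10. Figures used Python 3.11.15, pandas 2.3.3 and matplotlib 3.10.9.

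The contrast, gene lists, naming rule and alternatives were chosen with earlier results of these data known. Named genes are a list of markers; the 12 called genes furthest from 0 on each side with at least 10 CPM in a group, over 3 counts in each group and a call kept without both outlying libraries; up to 3 called genes per list; up to 8 called genes per side for which SEG went beyond all groups and neither factor was called; and up to 8 genes per factor not carried over from an effect above 2 on the log2 scale. Predicted genes were skipped. Where a group held 3 counts or fewer, levels stand in place of the bounds planned.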

Additional observations from a re-analysis of the deposited data

Results flagged for a closer look

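For 68 of the named genes with more than 3 counts in every group at both days, the deviation at day 7 differed from that at day 3 by a test of the difference itself (edgeR's quasi-likelihood test, adjusted p under 0.05, 3 libraries a group). All differences are the day 7 deviation minus the day 3 deviation on the log2 scale. The day 7 deviations rest in part on both outlying libraries. Many named genes were picked by their day 7 deviation, which favours a difference on the side of that deviation. These genes are therefore a description of that choice. Over all genes tested, the deviation was higher at day 7 for 7.48% and lower for 7.77%.

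Among endothelial and arterial genes the deviation was higher at day 7 for Hey2 by 3.93, Vwf by 3.62, Flt1 by 3.24, Pecam1 by 3.16, Lyve1 by 3.03, Adgrf5 by 2.85, Efna1 by 2.64, Kdr by 2.13, Efnb2 by 1.53, Tek by 1.30 and Bmx by 0.98. It was lower for Pdgfb at −2.31, Bcl6b at −1.76, Igfbp3 at −1.61, Notch4 at −1.31, Stab1 at −1.29 and Mcam at −0.83. Vwf stood at 0.41 at day 3 and 4.03 at day 7. Kdr lay below the sum at both days, by −6.61 at day 3 and −4.48 at day 7.

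Fibroblast, matrix and mesenchyme genes in this set were higher at day 7 throughout: Col15a1 by 3.64, Mfap4 by 2.25, Fbln2 by 1.69, Col1a1 by 1.51, Gata6, a cardiac zinc finger factor, by 1.43, Dcn by 1.40, Snai2 by 1.21 and Col18a1 by 0.50. The mural markers Cspg4, Anpep and Pdgfrb differed by 2.78, 1.53 and 0.72. Other genes with a higher deviation at day 7 were Mmp9 at 5.84, Tenm4 at 5.74, Dkk2 at 4.76, Igfbp4 at 2.89, C3 at 2.16, Scube1 at 1.83, Tgfbr2 at 1.60, Vwa1 at 1.57, Dkk3 at 1.43 and Tro at 0.70. H2-Q6, H2-Q7 and H2-Q5 differed by 6.26, 6.04 and 5.85, with uncertain counts because these genes share sequence.

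The deviations of cell cycle genes were lower at day 7, with Birc5 at −3.32, Aurkb, a mitotic kinase, at −3.05, Mcm5 at −2.87, Mki67 at −2.76 and Ccnd1 at −0.76. Contractile genes were lower too, with Cnn1 at −5.86, Actg2 at −4.57, Myl9 at −3.77, Acta2 at −2.83 and Tagln at −2.44, except for Myh11, the smooth muscle myosin heavy chain, which was higher by 2.40. Fbxo2 differed by −9.17, with −2.73 at day 3. The macrophage genes Ms4a7 and Cd68 were lower by −1.96 and −1.61, the integrins Itga7 and Itgb4 by −1.59 and −0.75, and the protease Mmp15 by −1.30.

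In lipid uptake, Cd36 differed by −3.29, Fabp5, a fatty acid binding protein, by −2.12, and Plin4, a lipid droplet protein, by 1.93. The neural markers Nefm and Ncam1 differed by −2.46 and −0.65, and the glycolytic enzyme Pgk1 by −1.24. Among stress and immediate early genes, Hspa1b differed by −1.93, Hspa1a by −1.84, Trib3, a stress-induced pseudokinase, by 1.35, and Fosb by 2.04.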

How the results depend on the processing

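The 3519 genes above and 3700 below the added effects became 3337 and 3912 with RLE size factors, 3510 and 4141 with DESeq2, 3006 and 3824 with no filter on low counts, and 4649 and 4980 with limma's library weights at day 7. A fit of the 12 day 7 libraries alone, which has fewer samples and leaves out the day 3 groups, gave 2259 above and 2823 below. A test beyond 1.5-fold gave 1738 above and 2095 below. Leaving out each day 7 library in turn gave 3091 to 4124 above and 3232 to 4538 below. Over these alternatives the median deviation of the genes first tested ran from −0.095 to 0.037. The 2259 genes that differed between the days became 5011 without both outlying libraries, and 5167 when Sox17 and SEG at day 7 were given a replicate block, which also gave 4865 above and 4645 below; this alternative was chosen after seeing the data, and the cause was not tested.

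Log2 CPM less its group mean was correlated over 18 pairs of same-numbered day 7 libraries. The correlation ran from −0.416 to 0.69 (median 0.0151), 5 pairs exceeded 0.1, and 6 of 12 libraries correlated best with their own number. The Sox17 and SEG pairs, which hold both outlying libraries, correlated at 0.69, 0.396 and 0.441, though replicates 2 and 3 of these groups also correlated across numbers (0.39 and 0.418). With the group mean taken out, an outlying replicate 1 in both groups by itself pushes replicates 2 and 3 to the other side. These values are therefore not separate evidence of pairing. Over all 4 groups the numbers are not taken as pairs, and a replicate block gave 3513 above and 3657 below, or 2375 and 2851 in the day 7 libraries alone.

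Of 164 named genes, 143 kept their direction and their side of the threshold under every alternative compared gene by gene. The test beyond 1.5-fold was left out of that comparison. The Tie1 log2 deviation ran from −0.007 to 4.039 with each library left out in turn, and was reversed without control replicate 2, where the other control libraries held 0 counts. Ribosomal protein genes had 3 of 83 above and 3 below, and 30 and 9 without both outlying libraries. A group with few counts widens the error of a deviation, as for Dll4.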
